A study of Mus musculus with 6 samples.

Results

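The matrix metalloproteinase (MMP) and ADAMTS protease genes and the genes of their inhibitors, the TIMPs, were followed in a mouse Schwann cell line with and without Sox10. Members were taken by symbol: every gene named Mmp or Adamts followed by a digit, and Timp1 to Timp4. This gave 46 of the 54109 gene IDs listed in the count tables, made up of 16 secreted MMPs, 7 membrane-bound MMPs, 19 ADAMTS proteases and 4 TIMPs. RNA from polyadenylated transcripts was sequenced in 3 cultures of Msc80 cells with wild-type Sox10 (control) and in 3 cultures of Msc80 cells whose Sox10 gene had been inactivated by CRISPR/Cas9 (Sox10ko). All cultures were grown in the same medium with fetal calf serum. The labels call them biological replicates and describe Sox10ko as a cell clone, without saying whether the 3 cultures came from 1 clone or several, so the loss of Sox10 and a difference between clones cannot be told apart, and p-values measure the spread between these cultures. In bulk RNA, fewer cells of a type and less RNA per cell cannot be told apart either.

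MMPs are zinc-dependent proteases that are made as inactive precursors and cut collagens, laminins, proteoglycans and many cell surface proteins. ADAMTS proteases are secreted relatives with thrombospondin-type repeats, and most known substrates are proteoglycans, procollagens and proteins of microfibrils. TIMPs are small secreted proteins that block the active site of MMPs, and Timp3 also inhibits ADAMTS proteases. In peripheral nerve the system is known for remodelling the Schwann cell basal lamina after injury and for clearing chondroitin sulfate proteoglycans from the path of regrowing axons.

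The libraries held 32328618 to 41834431 counted reads, and 15427 genes had enough reads to be tested. CPM values put the counts of all libraries on the same scale (TMM factors from edgeR), and errors are SD over the 3 libraries of a group (n = 3). A count of 3 reads, the limit that a count of 0 allows, was worth 0.0704 to 0.0899 CPM in a library; this limit and all counting intervals cover counting error only. Fold changes are log2 of Sox10ko over control ± SE, and a gene was called where the Benjamini-Hochberg adjusted p of edgeR's quasi-likelihood test over all tested genes was under 0.05. Sox10 itself was read at 606 to 627 CPM in the controls and at 67.5 to 116 CPM in Sox10ko. Of the 12 Schwann cell markers, Sox10 included, Sox10ko had less of 9 and more of 1, Pmp22 (35.1 and 92.5 CPM on average), while Mbp and Egr2 were not called. Their summed level went from 4607 to 5170 CPM in the controls to 182.5 to 269.4 CPM. Most of the control sum was Ngfr, at 2965 CPM on average, and Sox10 itself added 617 CPM.

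Summed transcript levels of membrane-bound MMPs and of ADAMTS proteases were lower in every Sox10ko library than in any control, and those of TIMPs were higher. Per kilobase of exon, which allows genes to be added up, the membrane-bound MMPs summed to 90.1, 134 and 104 CPM per kb in control replicates 1, 2 and 3 and to 14.0, 17.9 and 16.4 CPM per kb in Sox10ko replicates 1, 2 and 3. ADAMTS proteases summed to 81.2, 94.6 and 70.7 CPM per kb in the controls and to 31.4, 29.6 and 26.3 CPM per kb in Sox10ko. Between the means these classes were 6.80-fold and 2.82-fold lower. The secreted MMPs summed to 33.6, 39.3 and 40.2 CPM per kb in control and to 58.2, 42.0 and 53.8 CPM per kb in Sox10ko, a ratio of 1.36 that rests on Mmp11. Without Mmp11 the groups overlapped, at 30.3 ± 4.39 CPM per kb in control and 26.7 ± 8.03 CPM per kb in Sox10ko.

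The 4 TIMPs together stood at 278, 232 and 242 CPM per kb in control and at 419.6, 611 and 510.3 CPM per kb in Sox10ko, 2.05-fold higher. Set against all proteases, the summed TIMP level per summed protease level was 1.36, 0.867 and 1.13 in the control libraries and 4.05, 6.83 and 5.28 in the Sox10ko libraries. Against the secreted proteases alone (MMPs and ADAMTS) the ratio went from 2.11 ± 0.351 to 6.53 ± 1.93, and against the membrane-bound MMPs from 2.39 ± 0.681 to 31.8 ± 2.11. No test was made of these sums, since the members were chosen with results of these data known. They are transcript levels and say nothing of enzyme activity, and the ratios do not pair each TIMP with the proteases it inhibits.

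**Figure D1:**
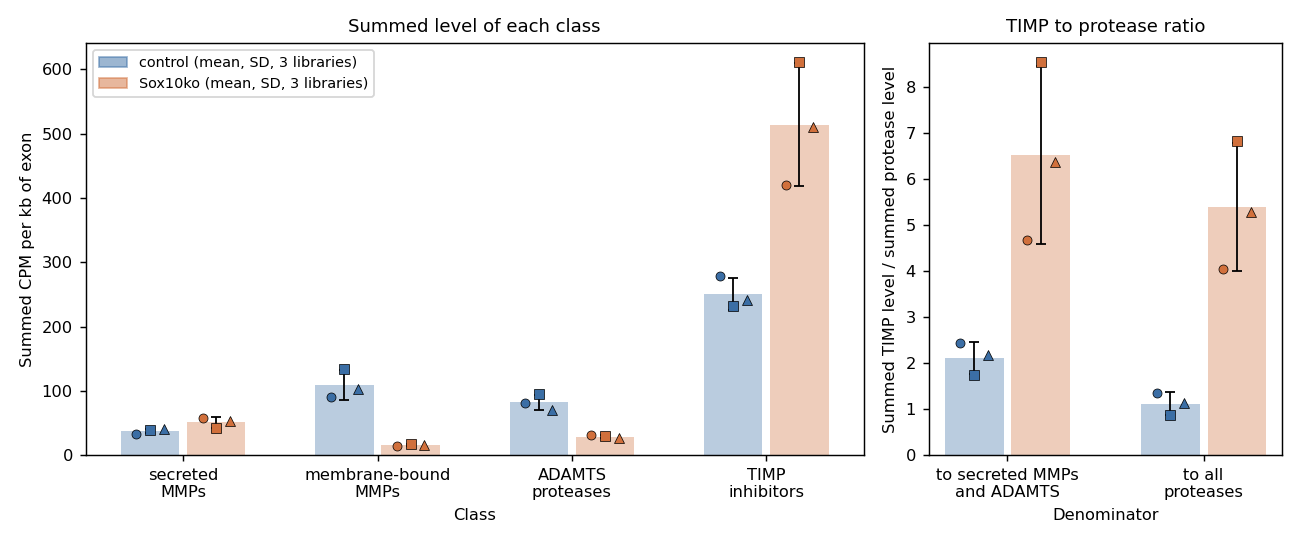
Left, summed level of each class in CPM per kb of exon, with control in blue and Sox10ko in orange. Right, summed TIMP level divided by the summed level of secreted proteases or of all proteases. Bars are means, error bars are SD and points are the 3 libraries of each group (circle, square and triangle for replicates 1, 2 and 3). The mean goes from 109 to 16.1 CPM per kb for membrane-bound MMPs and from 251 to 514 CPM per kb for TIMPs.

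The low-count filter kept 24 of the 46 genes, and 17 of these were called, 9 higher and 8 lower in Sox10ko. That is 70.8% of the tested members, where 32.0% of all tested genes were called, 17.3% higher and 14.7% lower. By class, 0 membrane-bound MMPs were higher and 3 lower of 4 tested, 2 ADAMTS genes were higher and 4 lower of 9, 4 secreted MMPs were higher and 1 lower of 7, and 3 TIMPs were higher and 0 lower of 4. Mmp10, Mmp13 and Timp4 reached the filter level in every Sox10ko library but not in every control. Adamts9 reached it in every control but not in every Sox10ko library. For these 4 genes the filter favoured a difference, most of all for Mmp13, which was under the level in every control. Among the other 20 tested members 13 were called, 6 higher and 7 lower. Without these 4 genes, 2 secreted MMPs were higher and 1 lower of 5, 2 ADAMTS genes higher and 3 lower of 8, and 2 TIMPs higher and 0 lower of 3. The median log2 fold change was then 0.15 in secreted MMPs, -1.59 in membrane-bound MMPs, -0.55 in ADAMTS genes and 0.98 in TIMPs, beside 0.02 over all tested genes. Among the 17 members averaging 5 CPM or more, 11 were called, beside 33.0% of all genes so tested. In 18 of the 24 the control and Sox10ko values did not overlap, beside 49.3% of all tested genes. These 18 include Mmp10, Mmp13, Timp4 and Adamts9, for which the filter favoured a difference. The count of members called higher was 5 without control replicate 2, and that of members called lower was 5 without control replicate 3. Of all tested members, the secreted MMPs called higher numbered 2 without control replicate 2 or 3 or Sox10ko replicate 3, and those called lower 0 without control replicate 2 or 3. The ADAMTS genes called higher numbered 1 without control replicate 2, and those called lower 2 without control replicate 3.

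**Figure D2:**
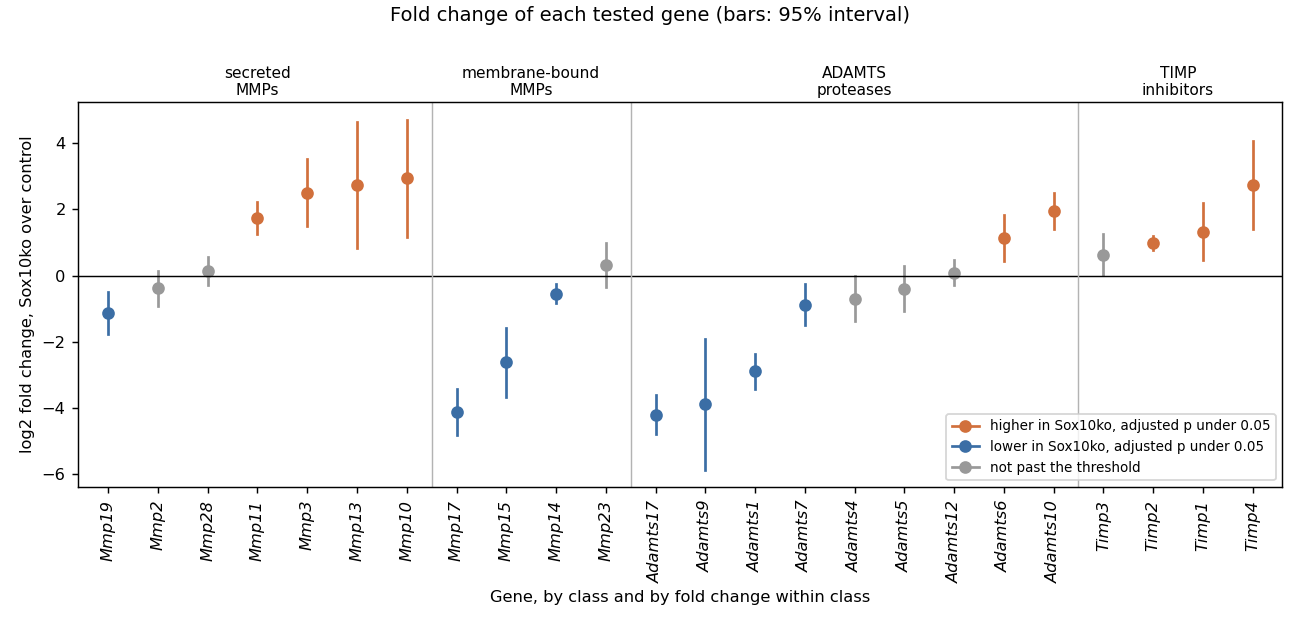
Log2 fold change of Sox10ko over control for the 24 tested genes, grouped by class and ordered by size within a class. Points are edgeR estimates, bars are 95% intervals, and colour gives the call (orange higher, blue lower, grey not past the threshold). The membrane-bound MMPs reach down to -4.12 for Mmp17 and the TIMPs lie between 0.63 for Timp3 and 2.75 for Timp4.

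Mmp17, which encodes a membrane-type MMP held in the membrane by a GPI anchor, was the protease with the highest level per length in the controls and made up 80.9% of the membrane-bound class there. Control replicates 1, 2 and 3 gave 465, 744 and 546 CPM of Mmp17, and Sox10ko replicates 1, 2 and 3 gave 22.0, 39.5 and 39.7 CPM. No Sox10ko library came near the controls, and the level fell 17.3-fold (log2 fold change -4.12 ± 0.30, edgeR adjusted p = 0.000182). Mmp17 (ENSMUSG00000029436) lies on the plus strand of chromosome 5 from 129584169 to 129611099 in GRCm38. Even so, 4008 reads of Mmp17 remained over the Sox10ko group, against 68550 in the controls.

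Mmp15, a transmembrane MMP that can activate the precursor of the gelatinase Mmp2, stood at 19.7, 47.7 and 44.5 CPM in control and at 7.55, 7.42 and 3.11 CPM in Sox10ko. Control replicate 1 had less of it than the other controls and still lay above every Sox10ko library (-2.63 ± 0.44, edgeR adjusted p = 0.00452). Mmp14, the best known membrane-type MMP, which cuts fibrillar collagen and activates the Mmp2 precursor in a complex with Timp2, differed far less. Its values were 94.0, 73.9 and 74.6 CPM in control and 52.2, 59.0 and 55.1 CPM in Sox10ko, without overlap (1.46-fold lower, edgeR adjusted p = 0.0140). Genes on chromosome 14, where Mmp14 lies, had a median log2 fold change of -0.24, and with chromosome medians removed Mmp14 was at -0.29 and no longer called (edgeR adjusted p = 0.182). In Sox10ko Mmp14 took 57.8% of the summed membrane-bound level and Mmp17 31.7%. Mmp23, which encodes an unusual MMP with an N-terminal membrane anchor, was low at 1.06 ± 0.264 and 1.31 ± 0.188 CPM and did not pass (95% interval of the log2 fold change -0.35 to 0.98, edgeR adjusted p = 0.437). The remaining membrane-bound members, Mmp16, Mmp24 and Mmp25, had at most 4 reads each over the 6 libraries.

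Most of the lower summed ADAMTS level lay in Adamts1, a protease of versican and aggrecan that made up 58.6% of the summed ADAMTS level in the controls. The control libraries held 256, 309.6 and 199.96 CPM of it and the Sox10ko libraries 41.4, 35.5 and 25.8 CPM. The groups were far apart, a 7.46-fold fall (-2.90 ± 0.23, edgeR adjusted p = 0.000232). The promoter window of Adamts1 on the minus strand was searched on both strands for ACAAAG and ACAATG, core letters bound by SOX proteins, since Sox10 was the gene inactivated. It held ACAAAG once. Of all 32851 windows of 300 bases in the RefSeq table (GRCm38.p6), 18.7% held ACAAAG, while ACAATG occurred in 12.6% of windows and not in this one. The 250 bases before the start, chr16:85803114-85803363, are shown 5′ to 3′ with the matching letters in capitals:
Adamts1: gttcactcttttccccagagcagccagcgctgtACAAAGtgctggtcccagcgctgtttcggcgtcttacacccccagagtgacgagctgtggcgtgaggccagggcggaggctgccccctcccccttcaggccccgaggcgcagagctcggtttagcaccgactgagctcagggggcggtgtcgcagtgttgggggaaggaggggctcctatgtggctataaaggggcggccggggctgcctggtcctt
Of the 5 members called lower that had a window (Adamts1, Adamts9, Adamts17, Mmp14 and Mmp15), 1 held ACAAAG and 0 held ACAATG; of the 7 called higher with a window, 2 held ACAAAG (Mmp10 and Timp1) and 0 ACAATG. Letters that match are a description of these windows and not a binding site.

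Adamts5, the neighbour of Adamts1 on chromosome 16 and the main aggrecan-cutting protease of mouse cartilage, was not called. It stood at 87.3, 146 and 105 CPM in control and at 111, 92.5 and 53.0 CPM in Sox10ko, with overlapping groups (95% interval of the log2 fold change -1.09 to 0.28, edgeR adjusted p = 0.333). Adamts4, another proteoglycan-cutting member, was at 59.5, 51.9 and 58.6 CPM in control and at 19.3, 38.2 and 46.9 CPM in Sox10ko. All Sox10ko values were lower, but Sox10ko replicate 1 was well below the other two and the gene did not pass (-0.70 ± 0.29, edgeR adjusted p = 0.106); it did without Sox10ko replicate 3 (edgeR adjusted p = 0.0418), with DESeq2 (adjusted p = 0.0479) and without a low-count filter (edgeR adjusted p = 0.0386), within a range of 0.0386 to 0.211 over all alternatives.

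Adamts17, a protease linked to fibrillin microfibrils, dropped from 11.5, 8.86 and 10.2 CPM to 0.689, 0.469 and 0.498 CPM. The libraries of each group were close to each other, and the fall of 18.5-fold was the largest fold among the called members (-4.21 ± 0.25, edgeR adjusted p = 8.70e-05). Adamts9, which cuts versican, had 18.7, 15.9 and 25.4 CPM in control and 2.94, 1.06 and 0.0997 CPM in Sox10ko. All Sox10ko libraries were below the controls, but they spread over more than 1 order of magnitude (-3.90 ± 0.84, edgeR adjusted p = 0.0121). The fall was 14.9-fold with all libraries and 34.1-fold without Sox10ko replicate 1 (29.0-fold with limma-voom), and leaving out control replicate 3 ended the call (edgeR adjusted p = 0.0535). A noncoding gene on the opposite strand within Adamts9, 9530026P05Rik, went from 475 to 9 reads and shares 0 exonic bases with it. Another opposite-strand gene, A730049H05Rik, shares 1381 exonic bases with Adamts9 and went from 13 to 223 reads, against 2349 and 147 reads of Adamts9, and Gm15737 shares 424 and had 1 and 0 reads.

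In the opposite direction, Adamts10, which acts on fibrillin and microfibril assembly, rose 3.88-fold, with 2.22, 2.64 and 1.71 CPM in control and 9.41, 8.97 and 7.15 CPM in Sox10ko (edgeR adjusted p = 0.00110). Its closest relative Adamts6 stood at 3.33, 2.92 and 1.66 CPM in control and at 5.99, 6.45 and 4.91 CPM in Sox10ko, again without overlap. The edgeR adjusted p of Adamts6 was 0.0239 (2.19-fold higher) and rose to between 0.0508 and 0.0642 without control replicate 2 or 3 or without Sox10ko replicate 1 or 2.

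Adamts7, which cuts cartilage oligomeric matrix protein, was 1.84-fold lower at 43.6, 47.1 and 39.3 CPM in control and 34.2, 15.8 and 20.5 CPM in Sox10ko. Groups did not overlap, but the edgeR adjusted p of 0.0414 was close to the threshold and was over it without any of the control libraries or Sox10ko replicate 2 or 3 (edgeR adjusted p = 0.0708 to 0.109). Adamts12, with which it shares that substrate, was at 21.2, 15.7 and 15.1 CPM and at 17.8, 18.6 and 18.9 CPM and did not pass (95% interval of the log2 fold change -0.28 to 0.46, edgeR adjusted p = 0.706).

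**Figure D3:**
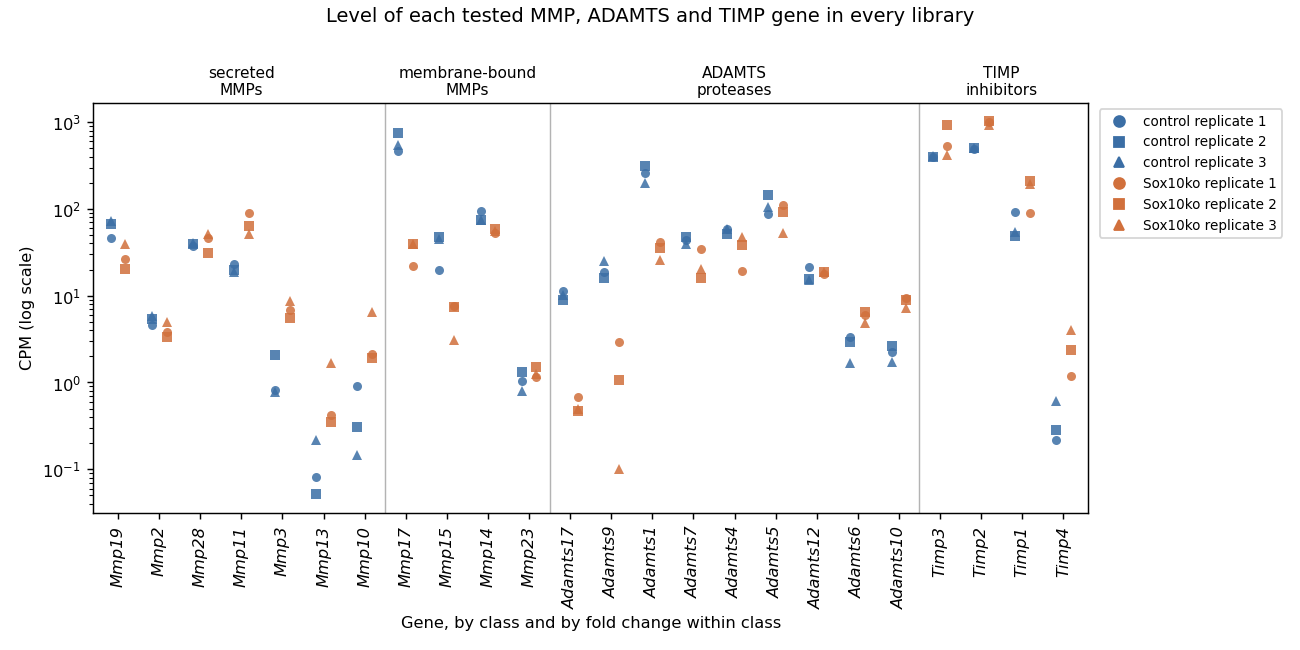
CPM of the 24 tested genes in every library on a log axis, by class. Control libraries are blue and Sox10ko libraries orange, with circle, square and triangle for replicates 1, 2 and 3. Mmp17 and Adamts1 drop out of the range above 100 CPM in Sox10ko, while Timp2 moves from 499 to 984 CPM.

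Among the gelatinases, Mmp2 made up 4.17% of the summed secreted MMP level in control and Mmp9 had too few reads for a test. Mmp2, gelatinase A, stood at 4.58, 5.40 and 5.88 CPM in control and at 3.83, 3.31 and 4.98 CPM in Sox10ko, and did not pass (95% interval of the log2 fold change -0.91 to 0.14, edgeR adjusted p = 0.229). Mmp9, gelatinase B, known from injured nerve, had 2 reads in each control library and 8, 6 and 8 reads in Sox10ko and was not tested. In level per length the class was led in the controls by Mmp19, a protease of basement membrane proteins, with 17.6 CPM per kb, and by Mmp28 (epilysin) with 10.0 CPM per kb.

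Mmp11 (stromelysin-3), which is switched on inside the cell by furin and then secreted as an active enzyme, became the leading secreted MMP in Sox10ko with 48.0% of the class. It rose from 23.1, 19.6 and 19.0 CPM to 89.8, 63.4 and 52.0 CPM. The lowest Sox10ko library was well above the highest control (1.73 ± 0.21, edgeR adjusted p = 0.00113). Mmp11 shares 155 of its 2778 exonic bases with Chchd10 on the opposite strand, which had 17 and 94 reads in the groups. Mmp19 fell from 46.3, 67.7 and 72.7 CPM to 26.4, 20.1 and 38.9 CPM. Its groups did not overlap (2.19-fold lower, edgeR adjusted p = 0.0177), but leaving out control replicate 2 or 3 ended the call (edgeR adjusted p = 0.0544 and 0.0670). Mmp19 shares 789 of its 3533 exonic bases with Tmem198b on the opposite strand, which also fell, from 6295 to 2192 reads; the strand setting of the counting is not given in the sources used here, so reads in the shared bases cannot be assigned. Mmp28 was at 37.6, 39.0 and 40.0 CPM and at 46.3, 31.2 and 51.6 CPM and did not pass (95% interval of the log2 fold change -0.28 to 0.57, edgeR adjusted p = 0.575).

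The other called MMPs came from the cluster on chromosome 9, where 10 Mmp genes lie between 7272514 and 7699585. Mmp3 and Mmp10 (stromelysins, with a broad range of matrix substrates) and Mmp13 (the main interstitial collagenase of the mouse) had enough reads to be tested, and these 3 were higher in Sox10ko. Mmp13 was under the filter level in every control, so it was tested only because of its Sox10ko reads and its direction was fixed. Mmp10 reached the level in every Sox10ko library but only in control replicates 1 and 2, so the filter favoured a rise without fixing it. Mmp3 reached the level in every library. The other 7 had no more than 8 reads each in total. Mmp3 was at 0.813, 2.07 and 0.781 CPM in control and at 6.77, 5.52 and 8.70 CPM in Sox10ko, clearly apart (2.51 ± 0.43, edgeR adjusted p = 0.00475). The rise was 5.70-fold, or 8.64-fold without control replicate 2, the control with the most Mmp3.

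Mmp10 stood at 0.922, 0.307 and 0.146 CPM in control and at 2.13, 1.92 and 6.50 CPM in Sox10ko. Sox10ko replicate 3 alone held 261 of the 414 Sox10ko reads, yet the other two also lay above every control (7.70-fold, edgeR adjusted p = 0.0233). The fold was 4.41 and uncalled without Sox10ko replicate 3 (edgeR adjusted p = 0.0544) and 15.1 without control replicate 1. The call was also lost without control replicate 2 or 3 (edgeR adjusted p = 0.0849 and 0.0767). For Mmp13 the values were 0.0813, 0.0512 and 0.220 CPM in control and 0.419, 0.352 and 1.67 CPM in Sox10ko, from 14 and 96 reads. Here too Sox10ko replicate 3 was highest (6.72-fold, edgeR adjusted p = 0.0377), and the fold was 3.16 without it (edgeR adjusted p = 0.0915) and 11.6 without control replicate 3 (edgeR adjusted p = 0.0585). Leaving out control replicate 1 or 2 also ended the call of Mmp13 (edgeR adjusted p = 0.119 and 0.116), as did limma-voom (adjusted p = 0.0562).

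Promoters of stromelysins and collagenases are textbook targets of AP-1, the dimers of Jun and Fos proteins, so the windows were searched for the AP-1 letters TGANTCA, which read the same on both strands. Of the 32 members with a window, 8 held these letters, all 8 in the chromosome 9 cluster (8 of its 10 genes, against 0 of the 22 other members), beside 7.81% of all windows. Stretches of 47 bases around the letters are shown 5′ to 3′ for the 3 genes that were higher and, for comparison, for 2 genes of the same cluster with too few reads to be tested, with the AP-1 letters in capitals (RefSeq, GRCm38.p6, all on the plus strand):
Mmp13: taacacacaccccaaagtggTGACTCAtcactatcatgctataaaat
Mmp3: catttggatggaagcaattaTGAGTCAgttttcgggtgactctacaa
Mmp10: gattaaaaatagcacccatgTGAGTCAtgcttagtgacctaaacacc
Mmp1a: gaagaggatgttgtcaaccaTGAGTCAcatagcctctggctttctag
Mmp7: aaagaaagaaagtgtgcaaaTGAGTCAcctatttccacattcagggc
The stretches lie at chr9:7272459-7272505, chr9:7445756-7445802, chr9:7502259-7502305, chr9:7464048-7464094 and chr9:7692007-7692053, in that order. The letters begin 35, 46, 63, 73 and 63 bases before the start of the gene. The 3 genes higher in Sox10ko carry them, and for Mmp13 among these the filter fixed the direction. The letters also stand before Mmp1a, with 6 reads in control and 1 in Sox10ko, and Mmp7, with 0 reads in all libraries. Of the 8 genes with the letters 5 had too few reads to be tested.

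**Figure D4:**
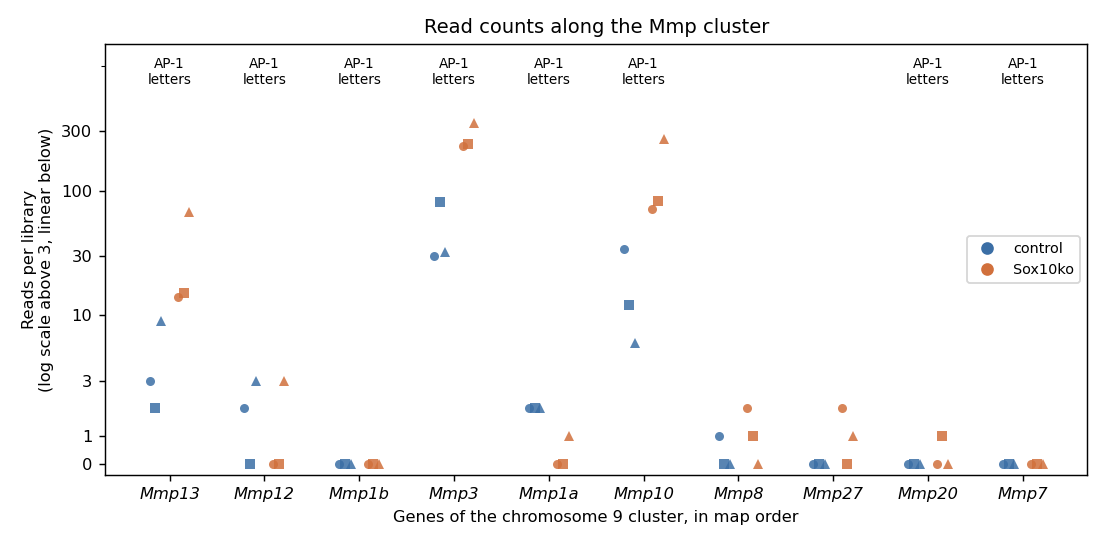
Reads per library for the 10 Mmp genes of the chromosome 9 cluster in map order, with control in blue and Sox10ko in orange and the marker shape giving the replicate; the axis is logarithmic above 3 reads and linear below. Genes whose promoter window holds TGANTCA are marked. Mmp3, Mmp10 and Mmp13 rise above the controls and the other 7 genes stay at 3 reads or fewer in each library.

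Genes that flank the cluster were read as well. Of 6 tested flanking genes 1 was higher and 0 were lower (16.7% called, beside 32.0% of all tested genes). Their median log2 fold change was 0.21, and Yap1 and Tmem123 were not called. The gene called was Birc2, an inhibitor of apoptosis, at 28.3 ± 1.73 and 39.0 ± 5.19 CPM (1.38-fold, edgeR adjusted p = 0.0285), and that call was lost without any of the control libraries or without Sox10ko replicate 1 or 2 (edgeR adjusted p = 0.0599 to 0.122). The median over chromosome 9 was 0.04.

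Among the inhibitors, Timp2 was the most abundant per length in both groups, at 128 and 252 CPM per kb. Timp2, which inhibits MMPs broadly, membrane-type ones included, had 489, 502 and 506 CPM in the control libraries and 991, 1026 and 933 CPM in Sox10ko. The 3 libraries of each group lay close together, and the level rose 1.97-fold (0.98 ± 0.09, edgeR adjusted p = 0.000405). Timp2 (ENSMUSG00000017466) is a minus-strand gene of chromosome 11, between 118301069 and 118355740.

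Timp1, a secreted inhibitor that acts weakly on membrane-type MMPs, stood at 92.0, 49.2 and 54.6 CPM in control and at 88.7, 208 and 194 CPM in Sox10ko. Sox10ko replicate 1 lay below control replicate 1, so the groups overlapped, while the other Sox10ko libraries were more than any control (2.51-fold, edgeR adjusted p = 0.0293). The call was lost without control replicate 2 or 3 (edgeR adjusted p = 0.0982 and 0.112) and without Sox10ko replicate 2 or 3 (edgeR adjusted p = 0.0748 and 0.0738). Timp3, the TIMP that binds to the matrix and also inhibits ADAMTS proteases, was at 402, 392 and 411 CPM in control and at 530.4, 916 and 418 CPM in Sox10ko. All Sox10ko values were higher, by little in replicate 3 and by most in replicate 2, and the gene did not pass (0.63 ± 0.27, edgeR adjusted p = 0.114). Without Sox10ko replicate 3 it did (edgeR adjusted p = 0.0331), in a range of 0.0331 to 0.240 over all alternatives.

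Timp4 was near the floor in control at 0.217, 0.282 and 0.610 CPM and reached 1.20, 2.37 and 3.99 CPM in Sox10ko, a rise of 6.74-fold from 44 to 301 reads (edgeR adjusted p = 0.0100). Per length it made up less than 0.1% of the summed TIMP level in either group. Timp1, Timp3 and Timp4 lie within the synapsin genes Syn1, Syn3 and Syn2 on the opposite strand. Timp1 shares 0 exonic bases with Syn1, Timp3 shares 1733 with Syn3 and Timp4 shares 90 with Syn2. Syn2 rose as well, from 5 to 251 reads (edgeR adjusted p = 0.00413), while Syn3 had 270 and 228 reads against 46960 and 73510 for Timp3. With 5 control reads in all, Syn2 was kept by its Sox10ko reads alone, so the filter fixed its direction.

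Of the 46 members 22 had too few reads for a test, and 5 of these (Adamts3, Adamts18, Adamts19, Mmp1b and Mmp7) had 0 reads in all libraries. Adamts16 had 0 reads in control and 1, 33 and 20 reads in Sox10ko, at least 18.1-fold higher over the group against a floor of 3 counts. Adamts15, a proteoglycan-cutting member, had 3 control and 33 Sox10ko reads, a ratio of 11.1 with an exact 95% counting interval of 3.47 to 56.4. All 3 control reads were in control replicate 3, and Adamts15 was called higher without a low-count filter and without control replicate 3 or Sox10ko replicate 2. Adamts16 was called higher without a low-count filter and without Sox10ko replicate 1. Both genes were under the filter level in every control. In the fits with a filter they were thus kept by their Sox10ko reads alone, and the filter fixed their direction. Adamts8 had 13 and 22 reads, 20 of the latter in Sox10ko replicate 3. Mmp8 (neutrophil collagenase) and Mmp12 (macrophage elastase) had 4 and 8 reads in all. Mmp20, Mmp21 and Mmp27 had at most 11 reads each, as did Adamts13, Adamts14 and Adamts20, and Adamts2 had 13.

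A broad list of other inhibitors and regulators of matrix proteases was mostly higher in Sox10ko. It includes genes that do not act on MMPs or ADAMTS proteases directly. Of the inhibitors on it, Reck was not called (log2 fold change 0.54, edgeR adjusted p = 0.0619) and A2m had 1 read in all. Of 16 tested genes of that list, 10 were higher and 2 lower (75.0% called, beside 32.0% of all tested genes; median log2 fold change 1.39). Pcolce, an enhancer of procollagen C-proteinase that shares a TIMP-like domain, rose 69.0-fold, from 6.46 ± 2.92 to 446 ± 184 CPM (edgeR adjusted p = 0.000225). The ADAMTS-like genes Adamtsl2 and Adamtsl4, which encode microfibril proteins without protease activity, rose from 0.0704 ± 0.0580 to 7.66 ± 3.24 CPM and from 2.04 ± 0.984 to 18.1 ± 1.40 CPM (edgeR adjusted p = 0.000340 and 0.000698). Adamtsl2 had 8 control reads and passed the filter by its Sox10ko reads alone, and its 106-fold rise was 185-fold without control replicate 1. Cst3 (cystatin C, an inhibitor of cysteine proteases) rose 6.33-fold and Lrp1, the endocytic receptor that clears MMPs, ADAMTS proteases and TIMPs, 2.26-fold (edgeR adjusted p = 0.000287 and 0.00141). Cd44, a hyaluronan receptor that can hold MMPs at the cell surface, fell 2.34-fold (edgeR adjusted p = 0.000185).

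Of 11 tested activating proteases and receptors, 1 was higher and 3 were lower (median -0.13), 36.4% and thus close to the 32.0% of all tested genes. Plat, tissue plasminogen activator, which starts the plasmin cascade that activates MMP precursors, fell 6.45-fold, from 113 ± 11.9 to 17.5 ± 7.86 CPM (edgeR adjusted p = 0.00128). Furin, which cuts the precursors of membrane-type MMPs, ADAMTS proteases and Mmp11, was 1.32-fold lower (edgeR adjusted p = 0.0278), a call lost without control replicate 1 or 3 or Sox10ko replicate 1 or 3 (edgeR adjusted p = 0.0544 to 0.0721). Klk8 fell from 69 to 4 reads, 15.7-fold (edgeR adjusted p = 0.00694), or 36.2-fold without Sox10ko replicate 3 and 10.5-fold without Sox10ko replicate 2. Pcsk6 had 3 control and 56 Sox10ko reads, a ratio of 18.8 with an exact 95% counting interval of 6.11 to 93.9 (edgeR adjusted p = 0.0101). Its 3 control reads were all in control replicate 3. Pcsk6 was kept by its Sox10ko reads alone and Klk8 by its control reads alone, so the filter fixed their directions.

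Matrix substrates were higher in 8 and lower in 1 of 15 tested genes (60.0% called, median 1.33). Bgn (biglycan) rose from 0.545 ± 0.183 to 91.3 ± 28.8 CPM and Fn1 (fibronectin) 24.2-fold (edgeR adjusted p = 5.32e-05 and 0.000179). Lama2, a laminin chain of the Schwann cell basal lamina, rose 3.34-fold and Col1a2 8.09-fold (edgeR adjusted p = 0.000413 and 0.00284). Vwf, the substrate of Adamts13, rose 16.7-fold (edgeR adjusted p = 0.00133), or 10.4-fold without Sox10ko replicate 3. Reln (reelin) fell 4.78-fold (edgeR adjusted p = 0.00157). Versican, the shared substrate of Adamts1 and Adamts9, was not called (Vcan, log2 fold change -0.68, edgeR adjusted p = 0.238).

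AP-1 and Ets factors changed in both directions, 5 higher and 7 lower of 14 tested (85.7% called, median -0.66). The AP-1 genes were themselves split. Junb, Jund, Fosb and Fosl2 were called higher (log2 fold change 1.17, 0.85, 1.25 and 0.75). Jun, Fos and Fosl1 were called lower (-1.79, -2.23 and -0.97). Jun fell from 332 ± 20.7 to 95.8 ± 2.30 CPM and Ets1 from 294 ± 16.3 to 82.5 ± 6.97 CPM, while Ets2 rose from 29.1 ± 2.99 to 165 ± 47.6 CPM (edgeR adjusted p = 5.44e-05, 7.83e-05 and 0.000316). The related factors Etv5, Etv4 and Etv1 fell 2.74-fold, 1.89-fold and 2.31-fold (edgeR adjusted p = 0.00106, 0.00243 and 0.0107).

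Markers of other cell types moved with the groups as well. Smooth muscle markers were higher in 4 of 5 tested, with a summed level of 0.786 to 1.02 CPM in control and 118 to 670.4 CPM in Sox10ko. Most of that sum was Acta2 (107, 644 and 321 CPM), then Des (18.8 CPM on average), while Tagln, Myh11 and Cnn1 averaged 0.602, 1.015 and 0.753 CPM. Epithelial markers were higher in 3 of 3 tested (Krt7, Krt8 and Krt14), with 0.195 to 0.256 and 77.8 to 105 CPM, most of it Krt7. Epcam and Cldn4 had 1 read each over all libraries, and Cdh1 and Krt18 were too low to be tested. Krt7, Krt8, Krt14, Acta2, Tagln and Cnn1 were under the filter level in every control. The filter thus fixed their direction. Fibroblast markers were higher in 2 of 3 tested (120.1 to 238 CPM and 494 to 1709 CPM, nearly all of it Col1a1), while Dcn, Lum, Thy1, Fap and Pi16 were too low to be tested. Macrophage markers were higher in 2 of 3 tested (6.28 to 8.13 CPM and 19.5 to 27.5 CPM), with Itgam at 0 reads and Ptprc too low to be tested. Neutrophil markers summed to 0.410 to 0.868 CPM and 0.224 to 0.305 CPM, with Mpo, Ngp and S100a9 at 0 reads. Ltf was lower, with 0 reads in Sox10ko, so that it was kept by its control reads alone. Endothelial markers were higher in 1 and lower in 1 of 3 tested (3.42 to 4.66 CPM and 19.8 to 56.1 CPM), the higher one being Vwf at 1.89 and 31.7 CPM on average and the lower one Cdh5 at 1.64 and 0.0861 CPM. The part of these markers in the protease and TIMP values was not tested.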

How the data were processed

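Read counts per Ensembl gene ID were deposited by the authors as raw whole numbers, 1 table per library. STAR 2.6.0c, HTSeq and DESeq2, with the mouse build mm10 (GRCm38), are named per the submitters' processing notes; libraries came from a stranded mRNA kit, per the labels' protocols. No source used here gives the strand setting or the annotation release. Symbols matched 54042 of 54109 IDs, and coordinates and exonic lengths came from GENCODE M21. Counts were filtered with filterByExpr, TMM-scaled and tested two-sided for genotype with edgeR 4.0.16 (R 4.3.3), all 6 libraries and no covariate, over 15427 genes. SE is the log2 fold change over the root of F. This step was checked on simulated counts. No replicates agreed within sampling noise.

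The members and gene lists were chosen with earlier results of these data known. Values per library are given for called members that average 1 CPM or more in a group, members that average 20 CPM or more, and Timp1 to Timp4, Mmp2, Mmp9 and Mmp14 in any case; from each further list up to 6 called genes with the lowest adjusted p are named. Genes named outside this rule were chosen after their values were seen. Among the members these were Adamts2, Adamts8, Adamts12, Adamts13 to Adamts16, Adamts20, Mmp13, Mmp23 and members with too few reads for a test. The others were Vcan, Yap1, Tmem123, Reck, A2m, the AP-1 genes other than Jun, genes overlapping a member and the marker genes. Alternatives were DESeq2 1.42.0 or its size factors, library size alone, other filters, limma-voom (limma 3.58.1), a replicate block, chromosome medians removed, other gene lengths, and leaving out each library.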

Additional observations from a re-analysis of the deposited data

How the results depend on the processing

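Over 14 alternatives, 9 of the 17 called members kept direction and call wherever they could be tested (Adamts1, Adamts10, Adamts17, Mmp3, Mmp11, Mmp15, Mmp17, Timp2 and Timp4), and 8 lost the call in at least 1. With a mean of at least 5 CPM required, 4 members were called higher, since fewer were tested. With 1 library left out, members called higher ran from 5 to 9, members called lower from 5 to 8 and all genes called from 2869 to 4681, the lowest without control replicate 3. Log2 fold changes that changed sign were those of Adamts12, between -0.024 without control replicate 3 and 0.239 without control replicate 1, and of Mmp28, between -0.013 without Sox10ko replicate 3 and 0.324 without Sox10ko replicate 2. The log2 ratio of summed secreted MMPs other than Mmp11 was -0.18 and ran from -0.428 without Sox10ko replicate 3 to 0.0109 without Sox10ko replicate 2. With the longest transcript as the length, the log2 ratio of summed membrane-bound MMPs was -2.34, beside -2.76 with exonic length. That of membrane-bound MMPs without Mmp17 was -0.78, beside -0.93. That of TIMPs per membrane-bound MMP was 3.28, beside 3.74. The cause was not tested.

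Replicate numbers did not pair the samples: deviations of same-numbered libraries correlated at -0.119, -0.0418 and 0.0355, and not every sample correlated best with its own number. With a replicate block, 7 members were called higher, 8 lower and 3537 genes in all; Timp1 and Mmp10 lost their calls (edgeR adjusted p = 0.0896 and 0.0604). Depth limits the 22 untested members, where a count of 0 allows 3 reads.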
